A study of Mus musculus with 18 samples.

Results

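The 4 atypical chemokine receptors Ackr1, Ackr2, Ackr3 and Ackr4 were examined in mouse lung together with the chemokine Cxcl12 and its signalling receptor Cxcr4. Every array probe whose RefSeq accession belongs to these genes was taken, which gave 8 probes for 6 genes out of 55681 probes and 20660 named genes. Ackr2 and Cxcl12 had 2 probes each, and each of the 8 probes had a value on all 18 arrays. The genes were chosen by the dose differences of these same arrays, Ackr3 for its own log2 differences from vehicle, so those differences are a description and carry no p-value.

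Adult male MutaTMMouse animals, a transgenic mutation-reporter strain, were about 12 weeks old. They received olive oil or a mixture of benzo(a)pyrene (BaP), benz(a)anthracene, benzo(b)fluoranthene and chrysene (4PAH mixture) by daily oral gavage for 28 days. Lungs were taken 72 h after the last dose from 5 vehicle mice, 4 mice at 12.5 (low), 5 at 25 (medium) and 4 at 50 (high) mg BaP equivalents/kg-bw/day. Lung RNA in Cy5 was hybridised beside a Cy3 Universal Mouse Reference RNA, a pool from mouse cell lines, with 1 array per mouse and no dye swap. Levels are therefore log2 ratios of lung over reference RNA, and a ratio cannot be compared between probes.

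Of all probes, between 51.5% and 61.1% exceeded background clearly in Cy5. The lowest correlation between any 2 arrays was 0.937. The 3 slides each held all 4 groups, but arrays of a dose sat in a fixed column, so column and dose cannot be told apart. Lung markers were present: Sftpc, the surfactant protein of alveolar type 2 cells, had a vehicle log2 ratio of 7.29, and Scgb1a1, the club cell secretoglobin, had 7.66. In whole lung, more cells of a type and more RNA per cell cannot be told apart.

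Cxcl12 is a chemokine made by stromal and endothelial cells that holds and guides leukocytes and progenitor cells through Cxcr4, a G protein-coupled receptor. Ackr3 binds Cxcl12 too, but passes its signal to arrestins instead of G proteins and takes the chemokine up for degradation. Ackr1 binds inflammatory chemokines on venular endothelium and red cells, Ackr2 degrades inflammatory CC chemokines and Ackr4 degrades Ccl19, Ccl21 and Ccl25. In the lung these receptors set how much chemokine remains for the signalling receptors.

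Polycyclic aromatic hydrocarbons bind the aryl hydrocarbon receptor, whose DNA element has the core GCGTG. The promoter windows of RefSeq (GRCm38.p6, 250 bases before to 50 after the start) were searched for GCGTG and for the E-box CACGTG on both strands, and all 6 genes had a window. GCGTG was found in 2 of them, Ackr3 and Cxcr4, and in 32.4% of all 32851 windows of this length. CACGTG was in none of the 6 and in 7.15% of all windows. Ackr3 is shown because its level differed most with dose, and Cxcr4 because it is the other gene with the motif. The Ackr3 window is chr1:90203730-90204029, plus strand, with the motif 120 bases before the start, and the Cxcr4 window is chr1:128592250-128592549, minus strand, with the motif 39 bases before the start. Both are written 5′ to 3′ on the strand of the gene, with the motif in capitals.
Ackr3: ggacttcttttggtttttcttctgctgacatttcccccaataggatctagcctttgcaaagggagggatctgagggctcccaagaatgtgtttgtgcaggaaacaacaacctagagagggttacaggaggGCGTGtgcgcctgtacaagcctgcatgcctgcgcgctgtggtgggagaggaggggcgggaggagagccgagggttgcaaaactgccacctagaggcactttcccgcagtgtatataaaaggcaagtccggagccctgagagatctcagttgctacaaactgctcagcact
Cxcr4: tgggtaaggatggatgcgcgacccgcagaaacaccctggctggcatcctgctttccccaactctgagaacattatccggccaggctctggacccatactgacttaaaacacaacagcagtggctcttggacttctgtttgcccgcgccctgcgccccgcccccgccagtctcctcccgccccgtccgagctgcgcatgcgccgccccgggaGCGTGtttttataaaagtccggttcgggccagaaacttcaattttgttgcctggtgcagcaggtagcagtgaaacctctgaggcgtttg
A match is a stretch of letters and not a measured binding site.

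Ackr3, the Cxcl12 scavenger, was higher at each dose than in vehicle lung. The log2 ratio was 0.74, 0.57, 0.27, 0.62 and 0.90 in the 5 vehicle mice (0.62 ± 0.23, mean ± SD). It was 0.94, 1.12, 1.04 and 0.99 at the low dose (1.02 ± 0.08, n = 4) and 1.27, 1.63, 1.36, 1.27 and 1.00 at the medium dose (1.31 ± 0.23, n = 5). At the high dose it was 1.73, 1.57, 2.39 and 2.03 (1.93 ± 0.36, n = 4). Every exposed mouse, 4 of 4, 5 of 5 and 4 of 4 at the rising doses, was above every vehicle mouse. Among all probes, groups did not overlap, with the dose higher, for 1.36%, 2.31% and 3.78% at these doses.

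The difference of Ackr3 from vehicle was 0.40 on the log2 scale (SE 0.15, 1.32-fold) at the low dose. The medium group differed by 0.69 (SE 0.14, 1.61-fold) and the high group by 1.31 (SE 0.15, 2.48-fold). Over all probes at the high dose the median difference was 0.00 and the 5th and 95th percentiles were -0.28 and 0.26. The high group exceeded the low group by 0.91 (SE 0.15), without overlap, as did 1.95% of all probes. Neighbouring exposed groups overlapped: 4 of 5 medium mice were above all low mice, and 3 of 4 high mice were above all medium mice.

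By the study's thresholds (a change of 1.5-fold or more with an adjusted p up to 0.05), 0 of the 8 probes passed at the low dose, where 0.0898% of all probes did. Ackr3 was the 1 probe of the 8 that passed at the medium dose, against 0.726% of all probes. It passed at the high dose as well, against 1.2%. It was also the 1 probe that passed between the high and the low dose, where 0.0449% of all probes did. The genes were chosen with these contrasts known, so nothing is read from these counts.

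**Figure D1:**
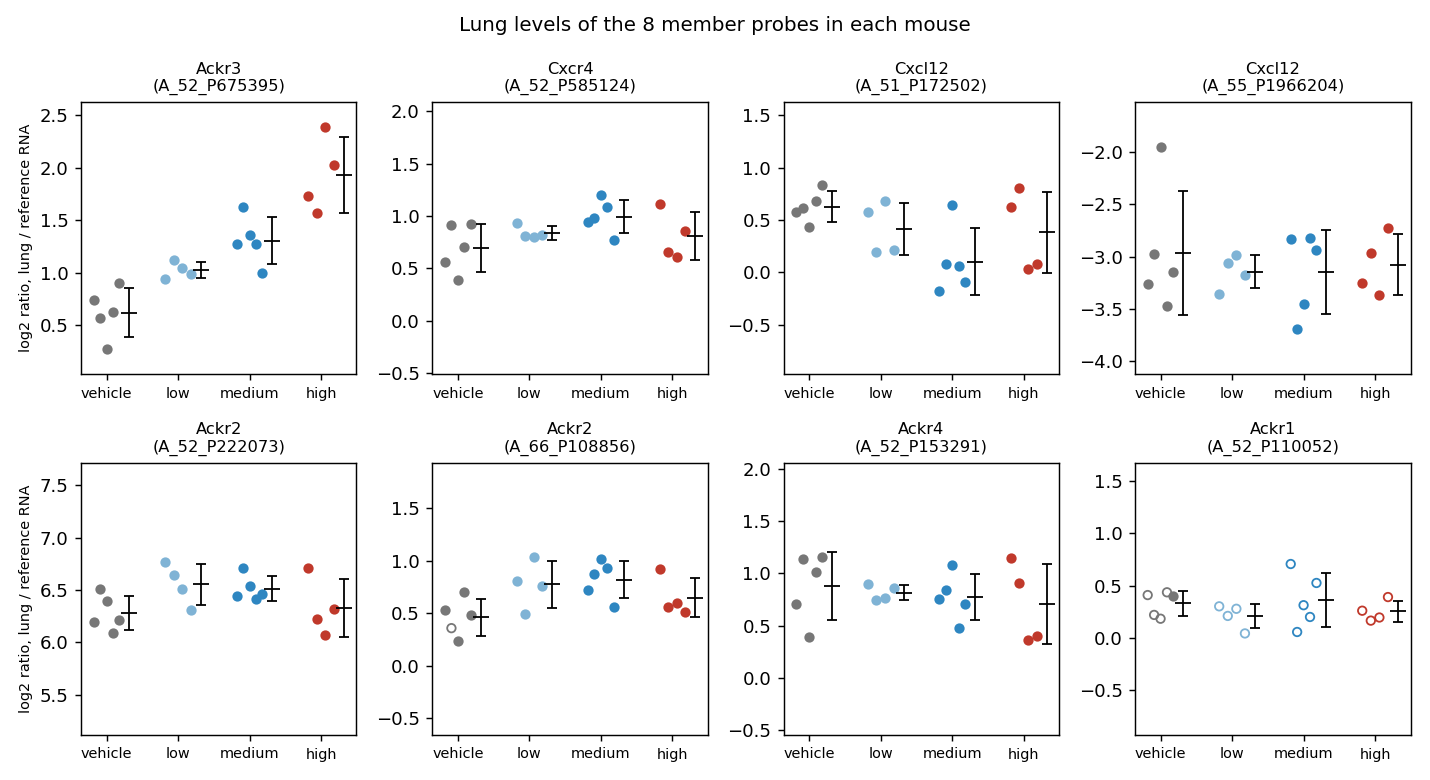
Log2 ratio of lung over reference RNA (vertical axis) in each mouse (points) for the 8 probes, by dose group, with the group mean and SD (bars). Open points were not well above background. Ackr3 means run from 0.62 in vehicle to 1.93 at the high dose, while the groups of the other probes overlap.

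The Ackr3 probe was well above background on all 18 arrays. Its Cy5 signal ranged from 772 to 4278 intensity units and its Cy3 signal, from the same reference RNA on every array, from 615 to 884. The spread of these raw signals lay therefore mostly in the lung channel. Raw Cy5 also carries array brightness: the median Cy5 of an array ran from 110 (vehicle replicate 3) to 142 (high replicate 20). On slide 1 the differences from the vehicle mice of that slide were 0.38, 0.80 and 1.00 at the rising doses. On slide 2 they were 0.60, 0.87 and 1.95. On slide 3, with 1 mouse per group, they were 0.09, 0.10 and 1.13. The high group was the highest on all 3 slides, while the low and medium differences on slide 3 were small beside a vehicle mouse at 0.90, the highest of the 5.

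**Figure D2:**
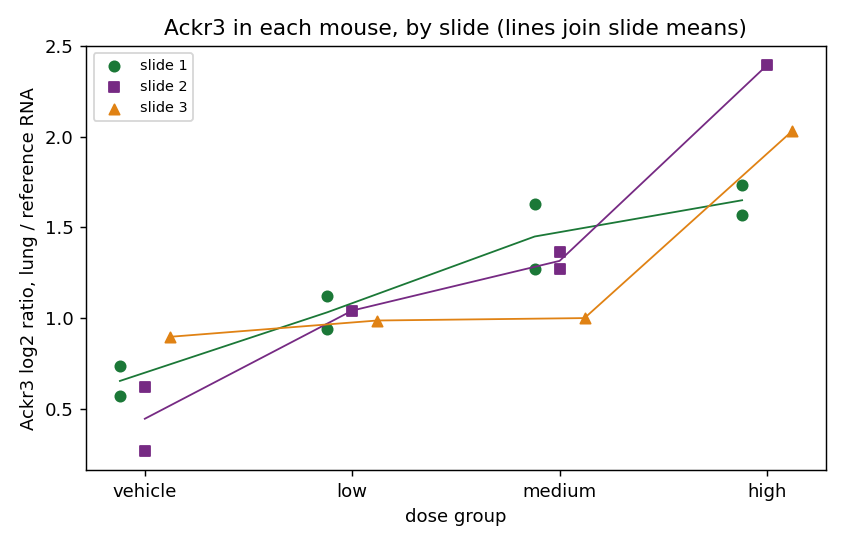
Ackr3 log2 ratio of lung over reference RNA (vertical axis) in each mouse by dose group (horizontal axis), with colour and shape for the slide and lines joining slide means. The high-dose difference from vehicle is 1.00, 1.95 and 1.13 on slides 1, 2 and 3.

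Cxcl12, the shared ligand, was lower on average at each dose on its brighter probe, A_51_P172502, with the lowest mean at the medium dose. The log2 ratio was 0.57, 0.62, 0.44, 0.68 and 0.83 in vehicle mice (0.63 ± 0.15, n = 5). At the medium dose it was -0.18, 0.07, 0.64, 0.06 and -0.10 (0.10 ± 0.32, n = 5), so that 4 of 5 mice were below every vehicle mouse. At the low dose it was 0.58, 0.19, 0.68 and 0.21 (0.41 ± 0.25, n = 4), and at the high dose 0.62, 0.80, 0.03 and 0.08 (0.38 ± 0.39, n = 4). Both of these groups held 2 mice within the vehicle range and 2 below it. The differences from vehicle were -0.21 (SE 0.17), -0.53 (SE 0.16) and -0.25 (SE 0.17) at the rising doses. With median centring in place of loess they were -0.07, -0.30 and 0.0098, so the high-dose difference did not keep its direction.

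The 2 Cxcl12 probes did not give the same size, and on the second the direction differed between means and medians. The second, A_55_P1966204, matches another transcript accession and had a vehicle log2 ratio of -2.96 ± 0.59 (n = 5). Its differences were -0.18 (SE 0.23), -0.18 (SE 0.22) and -0.12 (SE 0.23), each smaller than its standard error. Vehicle replicate 3 was at -1.95 and the other vehicle mice at -3.26, -2.98, -3.47 and -3.15. The group median was -3.15 in vehicle and -3.12, -2.93 and -3.11 at the rising doses, so each dose median was above vehicle. The high-dose difference of this probe was 0.01, -0.66 and 0.42 on slides 1, 2 and 3. For the brighter probe, the high-dose difference was 0.11 on slide 1, -0.53 on slide 2 and -0.75 on slide 3, so its direction was not shared by the slides.

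Cxcr4, the signalling receptor for Cxcl12, differed less than Ackr3, and its groups overlapped at every dose. Its log2 ratio was 0.56, 0.92, 0.38, 0.70 and 0.92 in vehicle mice (0.70 ± 0.23, n = 5) and 0.94, 0.81, 0.80 and 0.82 at the low dose (0.84 ± 0.06, n = 4). It was 0.94, 0.98, 1.20, 1.09 and 0.77 at the medium dose (0.99 ± 0.16, n = 5). The high-dose mice were at 1.12, 0.65, 0.61 and 0.86 (0.81 ± 0.23, n = 4). The highest group was the medium one, where 4 of 5 mice were above every vehicle mouse. The differences from vehicle were 0.14 (SE 0.12), 0.30 (SE 0.11) and 0.11 (SE 0.12). Against the vehicle mice of the same slide, the low, medium and high differences were 0.14, 0.22 and 0.15 on slide 1 and 0.25, 0.60 and 0.07 on slide 2. On slide 3 they were -0.10, -0.15 and -0.06, so the direction was not shared by the slides. The medium group exceeded vehicle most on slides 1 and 2 and was the lowest on slide 3.

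Ackr2, the scavenger of inflammatory CC chemokines, had means above vehicle at the low and medium doses. On the brighter probe, A_52_P222073, the group means were 6.28 ± 0.17, 6.56 ± 0.20, 6.51 ± 0.12 and 6.33 ± 0.27 from vehicle to high dose. The differences were 0.28 (SE 0.12), 0.23 (SE 0.11) and 0.05 (SE 0.12). On the dimmer probe, A_66_P108856, they were 0.31 (SE 0.12), 0.36 (SE 0.11) and 0.19 (SE 0.12). Its reference signal was well above background on 0 of 18 arrays and its Cy5 signal was 103 to 162 intensity units, so it adds little to the brighter probe. The reference signal of the brighter probe was low, at 69.5 to 110 intensity units, so the ratio of 6.28 rests on a dim denominator. Over the other processing settings its differences ranged from 0.13 to 0.45, 0.10 to 0.47 and 0.01 to 0.40, and with 1 mouse left out the high-dose difference ranged from -0.08 to 0.14.

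Ackr4, the scavenger of Ccl19, Ccl21 and Ccl25, overlapped between all groups. Its means were 0.88 ± 0.33 in vehicle and 0.82 ± 0.07, 0.77 ± 0.22 and 0.71 ± 0.38 at the rising doses. The differences of -0.06 (SE 0.16), -0.11 (SE 0.15) and -0.17 (SE 0.16) were near or below their standard errors. With the ratios of the scanner software, they were 0.73 at the low and 0.67 at the medium dose, a change of direction, and the reference channel was well above background on 1 of 18 arrays. Ackr1, the chemokine-binding receptor of venules and red cells, was well above background on 1 of 18 arrays, in a vehicle mouse, and no fold is given. Its ratios lay between 0.04 and 0.71.

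**Figure D3:**
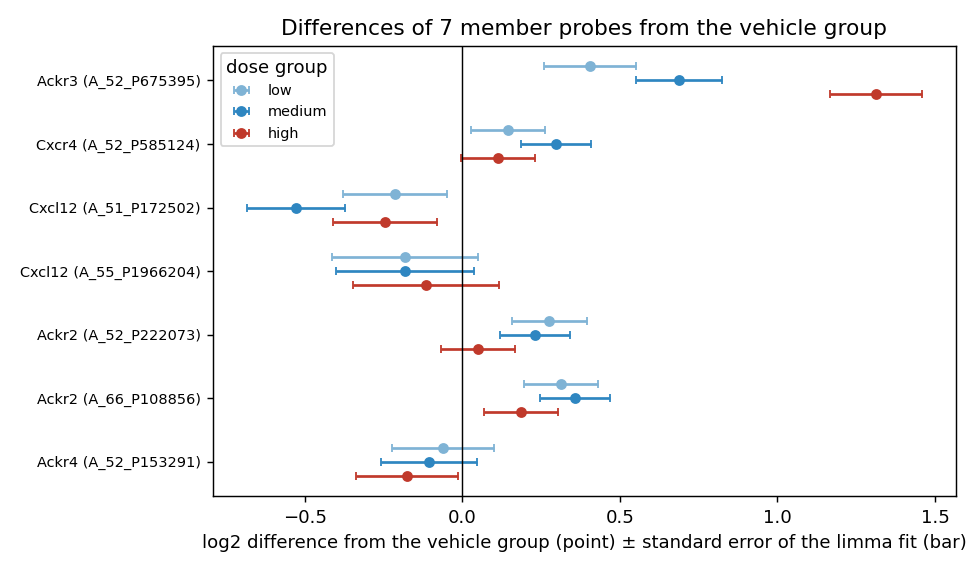
Log2 difference from the vehicle group (horizontal axis) for 7 probes of the genes in each dose group, with the standard error of the limma fit (bars). Ackr1 is left out because it was near background. Ackr3 lies at 0.40, 0.69 and 1.31, and the brighter Cxcl12 probe at -0.21, -0.53 and -0.25.

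Whether mice with more Ackr3 than their group also differed in the other genes was tested on deviations from the group means. Over 18 mice the Pearson r of Ackr3 was 0.18 with Cxcr4 (permutation p = 0.581) and -0.21 with Cxcl12 (p = 0.518, permutation). It was -0.23 with Ackr2 (p = 0.512, permutation), -0.09 with Ackr4 (p = 0.804, permutation) and -0.09 with Ackr1 (p = 0.736, permutation). Spearman's rho was 0.10, -0.27, -0.20, -0.16 and 0.01 in the same order, with permutation p from 0.364 to 0.968. The adjusted p was 0.804 for each of the 5 Pearson values and 0.929 to 0.968 for rho, and the tests were two-sided. Without the 2 mice farthest from the Ackr3 median, r was 0.34, 0.18, -0.15, 0.22 and -0.14. With median centring in place of loess, r with Cxcr4 was 0.72 (adjusted permutation p = 0.0486), and it was 0.49 without the 2 farthest mice. Spearman's rho for that pair and setting was 0.53 (adjusted permutation p = 0.246) and did not pass. Under loess, with or without slide means removed, none of the relations with Cxcr4, Cxcl12, Ackr2 and Ackr4 passed the adjusted threshold. Ackr1 was near background, so its value says nothing about a relation.

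Genes whose probes followed Ackr3 most closely over the 18 arrays were found among 13423 genes well above background. P2rx7, an ATP-gated ion channel of immune and lung epithelial cells, had the highest Pearson r, 0.90, with means of 1.73, 2.16, 2.30 and 2.50 from vehicle to high dose. Lrrc28 (0.89), Glb1, the lysosomal beta-galactosidase (0.88), Hnrnph3, an RNA-binding protein (0.88), and Fez2 (0.88) followed. Cxcr4 reached 0.28, Ackr2 -0.03, Ackr4 -0.26 and Cxcl12 -0.37. On deviations from the group means the closest were Zic1 (0.80), Ccnjl (0.79), Otof (0.79), Lef1 (0.73) and Lpar6 (0.72). These are descriptions over arrays that share dose groups, a reference RNA and slides, and no p is attached.

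Genes that handle Cxcl12, or are other ligands or ligand receptors of this axis, had a probe for 12 of 13. Adm, the vasodilator peptide adrenomedullin, which Ackr3 also binds, fell by 1.04 at the high dose (SE 0.22, limma adjusted p = 0.00807). It was the 1 gene of the list past the thresholds there, and none passed at the low or medium dose, where Adm differed by -0.65 (adjusted p = 0.377) and -0.67 (adjusted p = 0.0881). At the high dose Ramp2 was at -0.36 (limma adjusted p = 0.0399) and Mmp2 at 0.38 (limma adjusted p = 0.042), changes below 1.5-fold. Both fall outside the naming rule and were named after their values were seen. Of all probes, 0.0898%, 0.726% and 1.2% passed the thresholds at the rising doses. The median difference of the list was -0.09 at the high dose. Of 15 genes of Cxcr4 and Ackr3 signalling and desensitization, 0 passed at any dose by limma, and 3, 6 and 4 had an unadjusted p under 0.05 at the rising doses. Over all 55681 probes, 4459, 8503 and 8755 had such a p at these doses, so nothing is read from these counts. The median was 0.04 at the high dose, where Grk2, a receptor kinase, was at -0.32 (adjusted p = 0.0541) and Gnai3, an inhibitory G protein subunit, at -0.30 (adjusted p = 0.0487, a change below 1.5-fold).

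The ligands of Ackr1, Ackr2 and Ackr4 were mostly lower, with 12, 11 and 10 of 14 below vehicle and medians of -0.34, -0.21 and -0.18 at the rising doses, against 0.00 over all probes. Passing the thresholds were 1, 3 and 3 of them, all lower, against 0.0898%, 0.726% and 1.2% of all probes in either direction. The list was chosen with earlier results of these data known, so nothing is read from these counts. Ccl5, an attractant of T cells made by lymphocytes, fell by 1.01 (adjusted p = 0.0307), 0.92 (adjusted p = 0.00595) and 1.54 (adjusted p = 5.28e-05). Cxcl5, an epithelial attractant of neutrophils, fell by 2.12 at the high dose (adjusted p = 0.0136) and by 1.65 at the medium dose (adjusted p = 0.0486). At the low dose Cxcl5 was at -1.88, larger than at the medium dose, but did not pass (limma adjusted p = 0.165). Ccl4 fell by 0.76 at the high dose (adjusted p = 0.016) and Cxcl13, a B cell attractant, by 0.63 at the medium dose (adjusted p = 0.0224). At the low dose Cxcl13 was at -0.51 (limma adjusted p = 0.308). It was well above background in 5 of 5 vehicle, 3 of 4 low and 3 of 5 medium mice, so the size of its fall is uncertain. The Ccl5 call at the low dose was lost without any 1 of vehicle replicates 1, 2, 3 and 5 or low replicates 6, 9 and 10, with differences of -1.03 to -0.90. The Cxcl5 call at the high dose was lost without high replicate 16 (-2.03), and that at the medium dose was lost in 14 of 18 such fits and with slide as a block (-1.65). The Ccl4 call was lost without high replicate 16 (-0.73) or 17 (-0.67). The Cxcl13 call was lost without medium replicate 12 (-0.58) or 13 (-0.50) or vehicle replicate 1 (-0.51) or 3 (-0.56).

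Of 18 conventional chemokine receptors, the signalling relatives of the atypical ones, 0, 1 and 2 passed at the rising doses, with a median of 0.04 at the high dose. The shares of all probes that passed were 0.0898%, 0.726% and 1.2%. This list too was chosen with earlier results known, so nothing is read from its counts. Cxcr6, found on T and natural killer cells, fell by 0.62 at the high dose (adjusted p = 0.0315). Cxcr5, the B cell receptor for Cxcl13, rose by 0.64 and 0.72 in the medium and high groups (adjusted p = 0.0463 and 0.0314). With the scanner software's ratios Cxcr5 was at -0.37 and -0.06, the opposite direction, and in the authors' value table it was at 0.55 and 0.62 and passed at neither dose. Its medium-dose call was lost in 13 of 18 fits that left out 1 mouse (0.45 to 0.70). At the high dose the Cxcr6 call was lost without 7 of the 18 mice, one at a time, and the Cxcr5 call without 5 of them. Those for Cxcr6 were high replicates 16, 17 and 18 and vehicle replicates 1, 2, 3 and 5, with -0.67 to -0.51, and those for Cxcr5 were high replicates 16, 17 and 18 and vehicle replicates 3 and 4, with 0.52 to 0.78. With median centring in place of loess, none of the genes of these 4 lists passed at any dose.

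**Figure D4:**
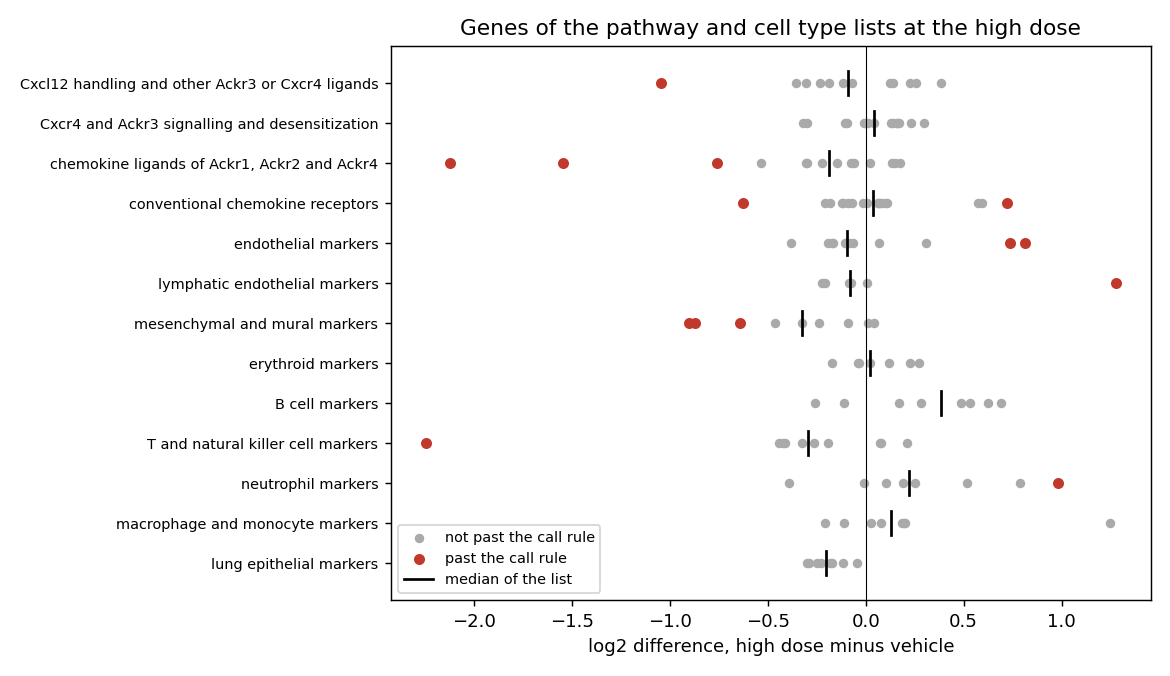
Log2 difference between high dose and vehicle (horizontal axis) for each gene with a probe in the 4 pathway lists and 9 cell type lists, with the list median (vertical line) and genes past the thresholds in red. Adm, Cxcl5, Ccl5 and Ccl4 stand out among the pathway genes, and Gzma and Lyve1 among the markers.

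Cell type markers moved at the same doses, and their part in the Ackr3 result was not tested. Beside the marker counts, 0.0898%, 0.726% and 1.2% of all probes passed the thresholds at the rising doses. All marker lists were chosen with earlier results of these data known, so nothing is read from their counts, here or below. Of 12 endothelial genes 2 passed in the medium and high groups: Pecam1, the platelet endothelial adhesion molecule, rose by 0.69 and 0.74 (adjusted p = 0.000968 and 0.000597), and Emcn, endomucin, by 0.60 and 0.81 (adjusted p = 0.00431 and 0.000323). At the high dose 8 of the 12 were below vehicle, and Kdr, a VEGF receptor, was at -0.38 (adjusted p = 0.0168, a change below 1.5-fold). Kdr falls outside the naming rule and was named after its values were seen. Their list's median at the high dose was -0.09, with mean log2 ratios of 2.91 to 3.19 in vehicle and 3.02 to 3.25 in high-dose mice. Of 6 lymphatic endothelial genes, 5 were below vehicle in the medium group and 4 in the high group, with medians of -0.12 and -0.08. Lyve1, a hyaluronan receptor also found on macrophages, rose by 1.07 and 1.28 in these groups (adjusted p = 0.0151 and 0.00515). It was the 1 gene of the 6 past the thresholds. The lymphatic regulator Prox1 was at -0.09 at the high dose. Prox1 was well above background in 1 of 5 vehicle and 0 of 4 high-dose mice, so its value says little. Without vehicle replicate 3, the Pecam1 medium-dose call was lost (0.58). The Emcn medium-dose call was lost without medium replicate 11 or 12 or vehicle replicate 2 or 3 (0.54 to 0.58).

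Genes of mesenchymal and mural cells, a known source of Cxcl12, had 2, 1 and 2 of 9 above vehicle at the rising doses, against 51.0%, 51.3% and 50.8% of all probes. Of the 9, the same 3 fell in the medium and high groups: Col1a1 by 0.86 and 0.64, Col3a1 by 0.97 and 0.87 and Dcn by 0.94 and 0.90, with adjusted p of 0.0192, 0.0158 and 0.0262 at the high dose. The list's mean log2 ratio was 0.29 to 0.58 in vehicle, -0.03 to 0.31 in low, -0.16 to 0.14 in medium and -0.26 to 0.30 in high-dose mice. The median difference of the list was -0.37, -0.32 and -0.33, and Pdgfrb and Tcf21 were at 0.01 and 0.04 at the high dose. Pdgfrb and Tcf21 fall outside the naming rule. The part of these cells in the Cxcl12 values was not tested. Without high replicate 16 or 18 the high-dose calls of Col1a1, Col3a1 and Dcn were lost (-0.60 or -0.53, -0.80 or -0.71, and -0.85 or -0.78). The Col1a1 call was lost also without vehicle replicate 3 (-0.48), and the Dcn call also without high replicate 17 (-0.90) or vehicle replicate 2 (-0.86), 3 (-0.89) or 5 (-0.86). The Dcn medium-dose call was lost without medium replicate 12 (-0.77) or 14 (-0.80).

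Among leukocyte markers, Gzma, granzyme A of T and natural killer cells, fell by 2.25 at the high dose (adjusted p = 0.00208), the 1 of 10 in its list past the thresholds. Of these 10 genes, 7 were below and 3 above vehicle at that dose, with a median of -0.29. An unadjusted limma p under 0.05 was found for 7 of them, against 8755 of 55681 probes. The list's mean log2 ratio was 0.61 to 1.23 in vehicle and 0.44 to 0.67 in high-dose mice. Mmp8, neutrophil collagenase, rose by 0.78 and 0.98 at the medium and high doses (adjusted p = 0.0496 and 0.0157), 1 of 8. The high-dose Mmp8 call was lost without high replicate 16 (0.93) or 17 (0.88), and the medium-dose call in 11 of 18 such fits. Of 8 B cell genes, Cd79b and Ms4a1 rose at the medium dose, by 0.70 each, and 0 passed at the high dose, where the median was 0.38. At the high dose 6 of the 8 were above and 2 below vehicle, and 6 had an unadjusted limma p under 0.05. The Ms4a1 call was lost without medium replicate 12 or 14 or vehicle replicate 3 or 4 (0.57 to 0.66), and the Cd79b call in 8 of 18 such fits. By limma, 0 of 8 macrophage and monocyte, 0 of 7 erythroid and 0 of 8 lung epithelial genes passed at any dose. At the high dose 1, 0 and 3 of them had an unadjusted p under 0.05, against 8755 of 55681 probes. Marco was at 1.25 (adjusted p = 0.152) and Ccr2 at -0.21, Slc4a1 at 0.27 and Klf1 at 0.23, and Ager at -0.30 and Hopx at -0.29. Klf1 was well above background in 1 of 5 vehicle mice, and 4 of the 7 erythroid genes were so in all vehicle mice. All 8 epithelial genes were below vehicle in the medium and high groups. With median centring, Lyve1 at the high dose was the 1 marker that passed (0.70 and not past the thresholds with the scanner software's ratios).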

How the data were processed

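Lung RNA from 18 mice was measured on 2-colour Agilent arrays, per the labels. The deposited scanner files hold median spot and background intensity, not normalized, and a log10 ratio made by the scanner software. The deposited value table holds the authors' log2 ratios. They correlated at 0.995 to 0.998 per array with those computed here, in the direction Cy5 over Cy3, and had medians of -0.03 to -0.02. Median signals were normalized by loess within arrays, without background subtraction. Outlier spots (215 to 307 per array) were left out, as were control spots after loess. A few probes (86) lacked a value on some array.

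All 4 groups entered 1 limma fit (limma 3.58.1, R 4.3.3) with Benjamini-Hochberg adjustment over 55681 probes within each contrast. The study's methods name a MAANOVA F test with residual shuffling, in whose place limma was used. Calls needed a change of 1.5-fold or more with an adjusted p up to 0.05, and the brightest probe stood for a gene. Correlations used 100000 permutations of mice within groups.

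The members and the 13 gene lists were chosen with earlier results of these data known. From each list, genes called at any dose were named, at most 6, or otherwise the 2 that differed most at the high dose. Outside this rule are Ramp2, Mmp2, Kdr, Prox1, Pdgfrb and Tcf21, and Sftpc and Scgb1a1, given for their vehicle level. The lists were: Cxcl12 handling, receptor signalling, atypical receptor ligands, conventional receptors, and markers of endothelial, lymphatic, mesenchymal, erythroid, B, T and natural killer, neutrophil, macrophage and epithelial cells. Replicates are separate mice. The fits were tested on simulated data. Alternatives were normexp (offset 50), the scanner ratios, the value table, median centring, scale normalization, Cy5 alone, outlier spots kept, slide as a block or split, 2 groups only, a filter on dim probes, no fold limit, the mean of a gene's probes and leaving out each mouse. The number of arrays limits the precision. Protein sequences were not used here.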

Additional observations from a re-analysis of the deposited data

Results flagged for a closer look

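Cxcr4 in low-dose replicate 6 lay apart from the other mice of its group. Its log2 ratio was 0.94, the nearest was 0.82, and this gap was 0.838 of the whole range of the group. It was 1 of 32 groups of mice examined over the 8 probes, and chance alone marks about 1 group in 20.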

How the results depend on the processing

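The Ackr3 difference from vehicle was positive in all fits run. Apart from single slides it was 0.36 to 0.48, 0.64 to 0.77 and 1.19 to 1.45 at the rising doses, and with each mouse left out in turn 0.32 to 0.47, 0.60 to 0.76 and 1.16 to 1.44. Within slides it moved to 0.60 (slide 2) and 0.090 (slide 3) at the low dose, 0.10 (slide 3) at the medium dose, and 1.00 (slide 1) and 1.95 (slide 2) at the high dose. Called pathway genes numbered 1, 4 and 6 at the rising doses. Median centring gave 0, 0 and 0, and the scanner ratios 0, 1 and 3. Scale normalization and Cy5 alone gave 0 at the low dose, fitting only 2 groups gave 0 at the low and 1 at the medium dose, and the mean of all probes gave 2 at the medium dose. Leaving out a mouse gave 0 to 2, 1 to 4 and 2 to 6. Called cell type markers numbered 0, 9 and 8. The scanner ratios gave 4 (medium) and 5 (high), and median centring 0 and 1. Leaving out a mouse gave 4 to 11 and 4 to 9. Over all probes median centring called 3, 29 and 78 against 50, 404 and 670, the scanner ratios 33, 696 and 1075, and no fold limit 93, 1969 and 2325. Cxcr5 reversed with the scanner ratios, to -0.37 (medium dose) and -0.060 (high dose). With median centring, r of Ackr3 was 0.54 with Ackr2, 0.27 with Ackr4 and 0.55 with Cxcl12, all reversed. Its Pearson r with Cxcr4 was then 0.72, past the threshold, while Spearman's rho was 0.53 (adjusted permutation p = 0.246) and not past it. The cause was not tested in any of these. No paired analysis was possible because mouse numbers do not repeat between groups. Signal over background limits Ackr1 in both channels, and Ackr4 and the dimmer Ackr2 probe in the reference channel.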
